A study of Salmo salar with 45 samples.

Results

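The comparison is between the 2 higher inclusion levels of heat-killed *Lactiplantibacillus plantarum* L-137 (HK L-137) in the feed of Atlantic salmon. Feed LP20™, a commercial product with the killed bacterium, made up 500 mg of each kg of the LP500 feed and 100 mg of each kg of the LP100 feed, so that the question was whether the higher level changed the distal intestine beyond the lower one. The fish were chosen by the diet in the sample records, 9 fed LP500 (higher inclusion) and 9 fed LP100 (medium inclusion), 18 of the 45 fish in the series. All 18 were pre-smolts of a commercial stock (AquaGen Atlantic QLT-innOva SHIELD) in fresh water, on a basal diet of fish meal and plant ingredients that did not differ between the groups. None of them is an untreated fish, and the fish on the control diet, the lowest level and the β-glucan diet entered only alternative fits on 45 fish. Mesentery and fat were taken off, the digesta were scraped out, and a distal section of the distal intestine was kept for RNA. RNA of each fish was sequenced as read pairs, and the pairs were counted per gene.

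In salmon, the distal intestine takes up whole proteins by endocytosis, and its enterocytes carry large lysosomal vacuoles. The epithelium is renewed from dividing cells at the base of the folds, and immune cells lie within and below it. Cell wall parts of killed lactic acid bacteria, lipoteichoic acid among them, are known to be sensed by pattern recognition receptors of vertebrate immune and epithelial cells.

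Between 13752864 and 17435966 pairs were counted on genes per LP100 fish (median 14634308) and between 11842626 and 16551621 per LP500 fish (median 14686013), which did not differ beyond the spread between fish (exact permutation test, two-sided, p = 0.427, n = 9 against 9). Markers of the labelled tissue were abundant in both groups. Cubilin (*cubn*), an endocytic receptor, averaged 3410 CPM (counts relative to a library of 1000000) in LP100 and 3160 CPM in LP500, and the bile acid carrier *slc10a2* averaged 1420 and 1380 CPM. Of 10 matched genes of pancreas, liver and fat, 3 were at 0 in all 18 fish and 8 did not pass the filter on low counts. The 2 that passed were *cidec* and *plin1*. *cidec* was at 75.6 ± 40.0 CPM in LP100 and 102 ± 46.5 CPM in LP500 (SD, n = 9), and *plin1* averaged 1.05 and 0.745 CPM. A total of 3 fish stood apart on the first principal component, which held 25.5% of the variance, namely A013 (LP500) at one end and A015 (LP500) and A061 (LP100) at the other. These fish were also the extremes when the enterocyte list was subtracted from the smooth muscle list, with −0.047 in A013, −3.09 in A015 and −3.24 in A061 on the log2 scale. In bulk samples, fewer cells of a type and less RNA per cell cannot be told apart. The numbers of genes called by edgeR and the counts of the gene lists were also taken without these 3 fish. On the second component (11.1% of the variance), the mean of LP500 minus that of LP100 was −29.1 (exact permutation test, two-sided, p = 0.021, adjusted over 6 library measures p = 0.117). A027 of LP500 had the highest value of all 18 fish there, at 41.0.

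Of 29847 expressed genes tested, none passed an adjusted p under 0.05 in either direction with the quasi-likelihood test of edgeR and Benjamini-Hochberg adjustment (0.0% higher and 0.0% lower in LP500). The smallest adjusted p was 0.145, shared by *znf593* and LOC106613630. At an unadjusted p under 0.05, 1715 genes (5.75%) were higher and 1500 (5.03%) lower in LP500. Their median log2 fold change was 0.321 among those higher and −0.31 among those lower, that is differences of modest size. DESeq2 on the same 18 fish called 48 genes higher (0.146% of 32870 with an adjusted p) and 25 lower (0.0761%), 73 in all (0.222%). The number of edgeR calls turned on a single fish. Without A027 of LP500, 217 genes passed as higher (0.724% of 29955) and 43 as lower (0.144%), 260 in all (0.868%), whereas 1 gene passed without A033 of LP100 (*znf593*) and none without any of the other 16 fish. Of the 73 genes called by DESeq2 with A027 included, 50 were also among the 260 called by edgeR without it, which is 68.5% of the former and 19.2% of the latter. In the text below, a gene is therefore described by its values, and no gene is said to have been changed. Counts without A027 given below come from a fit that was picked by this outcome, and are a description.

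**Figure D1:**
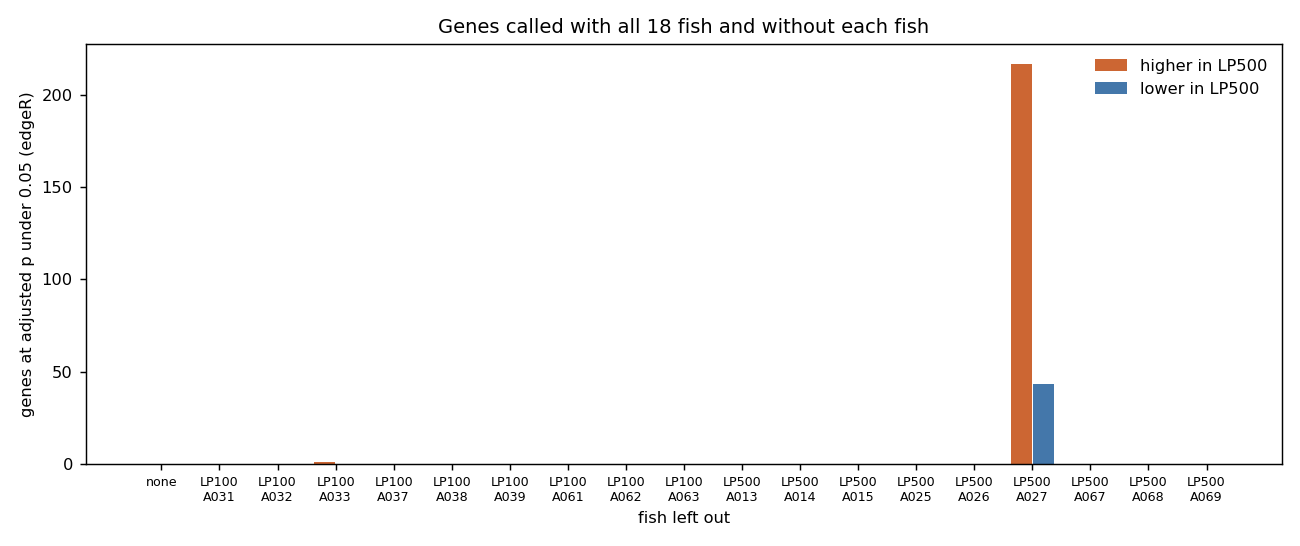
Number of genes at an adjusted p under 0.05 in edgeR (vertical axis) with all 18 fish (none) and with each fish left out (horizontal axis), for genes higher (orange) and lower (blue) in LP500. The bars without A027 reach 217 and 43, and all others are 0 or 1.

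The named gene with the smallest p was *znf593*, a zinc finger gene on chromosome 1 (13354010 to 13355668, build Ssal_v3.1), whose relatives from yeast to man act in the assembly of the large ribosomal subunit. Its level was between 14.7 and 19.7 CPM in LP100 (median 16.2) and between 19.4 and 24.2 CPM in LP500 (median 21.9). Among the LP500 fish, 7 of 9 were above every LP100 fish, and only A033 of LP100 reached into the LP500 range. A027 and A067 of LP500, both at 19.4 CPM, lay within the LP100 range. *znf593* thus had a log2 fold change of 0.41 ± 0.07 (SE; 1.33-fold), with an unadjusted p of 6.45e-06 and an adjusted p of 0.145 in edgeR. DESeq2 gave an adjusted p of 0.000431, and over 34 alternatives the adjusted p was between 0.000431 and 0.597.

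Betacellulin (*btc*, chromosome 1, 131507636 to 131515056) is a ligand of the epidermal growth factor receptor. It was between 6.89 and 10.8 CPM in LP100 (median 9.06) and between 10.3 and 16.8 CPM in LP500 (median 12.9). Only A015 of the LP500 fish lay within the LP100 range. *btc* had a log2 fold change of 0.52 ± 0.10 (SE), with an adjusted p of 0.201 in edgeR and 0.0026 in DESeq2 (0.0026 to 0.67 over the alternatives).

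Further leading genes that were higher in LP500 were *ddx51*, *tcp1*, *hnrpg*, *lrrc39*, *tmem245* and *si:dkeyp-120h9.1*. *ddx51*, an RNA helicase of ribosome assembly, was between 6.44 and 9.04 CPM in LP100 (median 7.72) and between 8.85 and 11.9 CPM in LP500 (median 10), so that only 1 LP500 fish lay within the LP100 range (log2 fold change 0.38 ± 0.08). *tcp1*, a subunit of the cytosolic chaperonin that folds actin and tubulin, was between 92.2 and 104 CPM in LP100 (median 94.8) and between 94.4 and 141 CPM in LP500 (median 115). The LP500 fish within the LP100 range was A027, and the other 8 were above it. The log2 fold change was 0.32 ± 0.07, as it was for *hnrpg*, an RNA-binding protein of splicing, in which A027 was also the only LP500 fish within the LP100 range (44 CPM against 38 to 49.4 CPM in LP100). Of the remaining genes with the smallest p in this direction, *lrrc39* (0.52 ± 0.11), *tmem245* (0.38 ± 0.09) and *si:dkeyp-120h9.1* (0.57 ± 0.13) had 6 to 8 LP500 fish above every LP100 fish. For all of these the adjusted p was 0.201 or 0.206 in edgeR and under 0.05 in DESeq2. Exons of other genes on the opposite strand covered 26.9% of the exon length of *lrrc39*.

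A pair of genes without a symbol separated the groups fully in the higher direction, and they are named because they were seen to do so. LOC106613630 (chromosome 10, 16747269 to 16749162) was between 4.32 and 9.70 CPM in LP100 (median 6.04) and between 9.76 and 17.9 CPM in LP500 (median 12.4). ENSSSAG00000089431 (chromosome 12, 23292425 to 23303262), which matched no RefSeq gene, was between 20.6 and 54.6 CPM in LP100 (median 41.9) and between 55.2 and 113 CPM in LP500 (median 86.1). Their log2 fold changes were 0.98 ± 0.17 and 1.05 ± 0.20, with adjusted p of 0.145 and 0.201 in edgeR. In the other direction *ap5b1*, *cep63*, LOC106608138 and ENSSSAG00000064145 did not overlap between the groups, which makes 4 lower genes (0.0134% of those tested) beside the 2 higher ones (0.0067%), 6 in all (0.0201%).

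Among the genes lower in LP500, the 2 with the smallest p that carry a name both act in autophagy, the pathway by which cells enclose their own contents in membranes and deliver them to lysosomes. *epg5*, a tethering factor for the fusion of autophagosomes with lysosomes (chromosome 24, 15458812 to 15485508), was between 26.3 and 38.4 CPM in LP100 (median 29.9) and between 20.4 and 28.3 CPM in LP500 (median 23.5). All LP500 fish except A027 were below every LP100 fish. The log2 fold change was −0.40 ± 0.09 (SE), with an adjusted p of 0.201 in edgeR and 0.0224 in DESeq2 (0.0224 to 0.67 over the alternatives). *atg2a*, which moves lipids into the growing autophagosome membrane (chromosome 5, 18278418 to 18306713), was between 28.5 and 36.7 CPM in LP100 (median 34.0) and between 20.6 and 30.0 CPM in LP500 (median 24.9). A total of 6 LP500 fish were below every LP100 fish, and the highest LP500 fish was again A027. For *atg2a* the log2 fold change was −0.35 ± 0.08, with an adjusted p of 0.201 in edgeR and 0.022 in DESeq2 (0.022 to 0.67 over the alternatives).

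*ap5b1*, a subunit of the AP-5 adaptor complex of late endosomes (chromosome 12, 68101556 to 68107120), was between 10.3 and 14 CPM in LP100 (median 12.0) and between 6.30 and 10 CPM in LP500 (median 9.62), with no overlap (log2 fold change −0.44 ± 0.10). Without A027 its adjusted p in edgeR was 0.0508, so that it was not among the calls of that fit. *cep63*, a gene of the centrosome, was between 6.66 and 8.97 CPM in LP100 (median 7.72) and between 5.52 and 6.60 CPM in LP500 (median 6.16), again with no overlap (−0.33 ± 0.08). *rnf26*, a ubiquitin ligase of the endoplasmic reticulum membrane, was between 4.38 and 7.50 CPM in LP100 (median 6.31) and between 2.84 and 5.27 CPM in LP500 (median 4.27), where 5 LP500 fish were below every LP100 fish (−0.58 ± 0.14). The adjusted p of these 3 genes was between 0.201 and 0.241 in edgeR. In DESeq2 it was 0.0254 for *ap5b1*, 0.0311 for *rnf26* and 0.104 for *cep63*. Without A027 it was 0.0537 for *cep63* and 0.0583 for *rnf26* in edgeR.

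Further leading genes that were lower in LP500 were *nlrc3*, *parp12a*, *epsti1* and *cytip*. *nlrc3*, a NOD-like receptor that dampens innate signalling in mammals, was between 14 and 19.7 CPM in LP100 (median 16.3) and between 10.5 and 15.5 CPM in LP500 (median 13.2), with 7 LP500 fish below every LP100 fish (log2 fold change −0.34 ± 0.08). Fish carry many related NOD-like receptor genes, so its counts are uncertain. The interferon-induced genes *parp12a* and *epsti1* had log2 fold changes of −0.34 ± 0.08 and −0.38 ± 0.10, with 6 and 5 LP500 fish below every LP100 fish. *cytip*, which regulates the adhesion of lymphocytes, was between 7.78 and 14.3 CPM in LP100 (median 9.58) and between 5.85 and 9.25 CPM in LP500 (median 7.10), with a log2 fold change of −0.44 ± 0.11. The adjusted p of these 4 genes was between 0.224 and 0.262 in edgeR and between 0.0577 and 0.0849 in DESeq2, and *nlrc3* was at 0.0405 in edgeR without A027 (0.0405 to 0.67 over the alternatives). The last named gene of this direction, *dcakd*, had 8 LP500 fish below every LP100 fish (−0.42 ± 0.11). Its adjusted p was 0.266 in edgeR and 0.0916 in DESeq2.

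**Figure D2:**
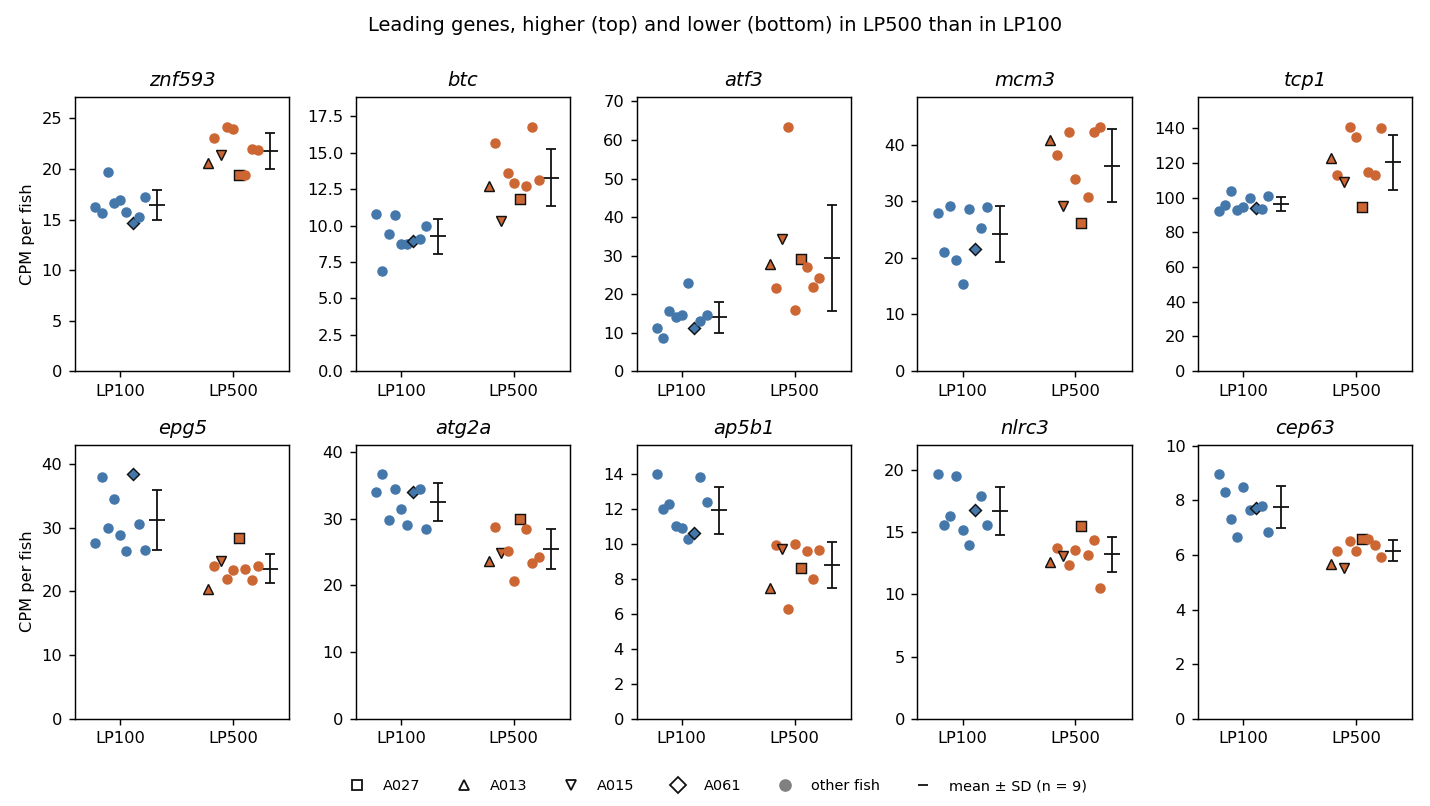
Level in CPM (vertical axis, from 0) of 10 leading genes in each of the 9 LP100 (blue) and 9 LP500 (orange) fish, with the mean and SD beside the points and 4 fish marked by shape. The square, A027, lies within the LP100 range for *znf593*, *tcp1*, *mcm3*, *epg5*, *atg2a* and *nlrc3*. For *ap5b1* and *cep63* the diets do not overlap.

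A gene group with high values in LP500 was that of DNA replication and cell division. Of 22 tested genes of the cell cycle list, 8 were higher at an unadjusted p under 0.05 (5.75% of all tested genes were) and none lower, 21 had a positive log2 fold change and the median was 0.273 (−0.00286 over all tested genes). *mcm3*, a subunit of the replicative helicase, was between 15.3 and 29.2 CPM in LP100 (median 25.3) and between 26.2 and 43.2 CPM in LP500 (median 38.2). A total of 7 LP500 fish were above every LP100 fish, and the 2 that were not were A015 and A027. Its log2 fold change was 0.58 ± 0.13, with an adjusted p of 0.201 in edgeR and 0.0218 in DESeq2 (0.0218 to 0.67 over the alternatives). The helicase subunits *mcm7* (0.34 ± 0.11), *mcm6* (0.34 ± 0.13) and *mcm4* (0.23 ± 0.09), the ribonucleotide reductase subunit *rrm2* (0.41 ± 0.16), the thymidylate synthase *tyms* (0.26 ± 0.12) and the mitotic genes *bub1* (0.34 ± 0.16) and *tpx2* (0.27 ± 0.13) made up the 8. The proliferation marker *mki67* was not among them (67.7 ± 9.96 CPM in LP100 and 82.1 ± 24.0 CPM in LP500, SD, n = 9, log2 fold change 0.28 ± 0.15). The value of the list was lowest of all 18 fish in A027 (−0.476) and highest in A013 (0.491). Without A027, 17 of the members were higher at an unadjusted p under 0.05 (8.46% of all tested genes), and without A013, A015 and A061 it was 5 (5.5%, and 9.51% of all tested genes in either direction), with a median of 0.186.

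Genes of ribosome assembly in the nucleolus were looked at after *znf593* and *ddx51* had been seen, as were the lists of chaperonin and prefoldin, of mitochondrial ribosome and of mitochondrial import genes, so that these are a description. Genes seen first, such as *tcp1*, were not taken out of the counts of these lists. Of 69 tested genes, 41 were higher at an unadjusted p under 0.05 (5.75% of all tested genes were) and none lower, 66 had a positive log2 fold change, and the median was 0.245. *ngdn*, a part of the complex that processes the small subunit's RNA, was between 6.33 and 10.1 CPM in LP100 (median 8.37) and between 9.26 and 14.5 CPM in LP500 (median 11), with 7 LP500 fish above every LP100 fish (0.47 ± 0.11). Further members were the ATPase *ruvb1* (0.49 ± 0.12), the large-subunit factors *rrs1* (0.46 ± 0.13) and *bxdc2* (0.44 ± 0.11), *noc2l* (0.39 ± 0.11) and *fbrl*, the methyltransferase that modifies ribosomal RNA (0.37 ± 0.11). DESeq2 called 4 of the 69 (0.222% of all genes with an adjusted p). Exons on the opposite strand covered 40.2% of *ruvb1*. The summed level of the list was between 1510 and 1850 CPM in LP100 (median 1630) and between 1490 and 2300 CPM in LP500 (median 1870).

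The chaperonin and prefoldin list holds the cytosolic and mitochondrial folding machines and the complex that hands them unfolded proteins. Of 13 tested members, 12 were higher at an unadjusted p under 0.05 (5.75% of all tested genes were), all except *pfdn2* (−0.03 ± 0.06), and the median log2 fold change was 0.277. The 12 include *tcp1*, which had been seen before the list was drawn up. Beside *tcp1*, these were the chaperonin subunits *cct8* (0.28 ± 0.10), *cct7* (0.21 ± 0.09), *cct5* (0.20 ± 0.06), *cct4* (0.19 ± 0.08) and *cct2* (0.33 ± 0.14), the prefoldin subunits *pfdn5* (0.41 ± 0.13), *vbp1* (0.32 ± 0.09), *pfdn1* (0.29 ± 0.11) and *pfdn6* (0.23 ± 0.10) and the mitochondrial *hsp10* (0.42 ± 0.12) and *grpel1* (0.24 ± 0.07). Exons on the opposite strand covered 58.1% of *cct5* and 56.5% of *cct4*. The list value was between −0.220 and −0.036 in LP100 on the log2 scale. It was between 0.039 and 0.327 in 8 LP500 fish and −0.343 in A027.

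Nuclear genes of mitochondrial proteins also had mostly positive log2 fold changes. Of 40 tested proteins of the mitochondrial ribosome, 22 were higher at an unadjusted p under 0.05 (5.75% of all tested genes were) and none lower, with 38 positive and a median of 0.204. *mrps10* (0.28 ± 0.08), *mrps31* (0.30 ± 0.09) and *mrpl37* (0.36 ± 0.13) are examples. Of 13 genes of the import machinery of mitochondria, 6 were higher and 13 positive (median 0.172), led by the outer membrane channel *tomm40l* at 27.8 CPM in LP100 and 39.4 CPM in LP500 (0.51 ± 0.12). Of 23 genes of oxidative phosphorylation, 4 were higher, beside 5.75% of all tested genes, and 21 positive (median 0.111), among them *atp5mc3b* of the ATP synthase (0.36 ± 0.10) and *ndufb3* of complex I (0.28 ± 0.10). All 37 tested proteins of the cytosolic ribosome had a positive log2 fold change (49.4% of all tested genes did), with a median of 0.0886. Without A013, A015 and A061 the median was 0.025, and with the trend over exon length taken out in each fish 0.0475. The list value was 0.537 in A013 and between −0.231 and 0.136 in the other LP500 fish, against −0.165 to 0.109 in LP100. Only *rpl3* (0.18 ± 0.07) and *rpl36a* (0.22 ± 0.10) were at an unadjusted p under 0.05. A count of 2 in 37 is near the 5.75% of all tested genes that were higher. Without A013 *rpl36a* was at 0.12, with an unadjusted p of 0.0646. All 9 tested proteasome genes were positive too (median 0.144), and 2 were at an unadjusted p under 0.05. For the mitochondrial ribosome, the value was between 0.052 and 0.258 in 8 LP500 fish and −0.343 in A027, against −0.213 to 0.010 in LP100. Without A027, 9 oxidative phosphorylation genes and 6 proteasome genes were higher at an unadjusted p under 0.05 (8.46% of all tested genes were). That fit was picked by its number of calls. A027, the fish left out, was the lowest LP500 fish for ribosome biogenesis, chaperonin and prefoldin, mitochondrial ribosome and cell cycle genes. It was also the lowest for oxidative phosphorylation (−0.241), proteasome (−0.395), mitochondrial import (−0.303), unfolded protein response (−0.365) and lipid and sterol genes (−0.816). High counts for these lists are thus no independent support. In that fit the adjusted p of edgeR was under 0.05 for 0.868% of all tested genes. It was so for 13 of the 69 ribosome biogenesis genes, 5 of the 13 chaperonin and prefoldin genes, 6 of the 40 genes of the mitochondrial ribosome, 2 of the 13 of mitochondrial import, 1 of the 22 of the cell cycle, 1 of the 23 of oxidative phosphorylation, 0 of the 9 of the proteasome and 3 of the 28 of autophagy.

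Genes that respond early to stimuli or stress formed another group with high values. Of 17 tested immediate early and stress genes, 6 were higher at an unadjusted p under 0.05 (5.75% of all tested genes were) and none lower, and the median log2 fold change was 0.401. *atf3*, a stress-induced transcription factor (chromosome 15, 40452811 to 40456809), was between 8.67 and 22.9 CPM in LP100 (median 14.1) and between 15.9 and 63.5 CPM in LP500 (median 27). The highest value was that of A025, and 6 LP500 fish were above every LP100 fish. The log2 fold change was 1.07 ± 0.22 (2.11-fold), with an adjusted p of 0.201 in edgeR and 0.00469 in DESeq2 (0.00469 to 0.67 over the alternatives). *junb*, a part of the AP-1 transcription factor, was between 2.38 and 8.29 CPM in LP100 (median 4.83) and between 4.66 and 26.8 CPM in LP500 (median 12.9). Here 6 LP500 fish were above every LP100 fish, and A025 was again the highest (1.20 ± 0.30, adjusted p of 0.262 in edgeR and 0.0268 in DESeq2, 0.0268 to 0.67 over the alternatives). The other 4 were *ier2a* (0.61 ± 0.18), *btg2* (0.38 ± 0.11), *jun* (0.69 ± 0.26) and *klf2a* (0.61 ± 0.27). *myc* was at 25.4 CPM in LP100 and 24.2 CPM in LP500. Unlike for ribosome biogenesis, chaperonin and prefoldin, mitochondrial ribosome and cell cycle genes, A027 was high here, with a list value of 0.422, and only A025 was higher (0.538).

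**Figure D3:**
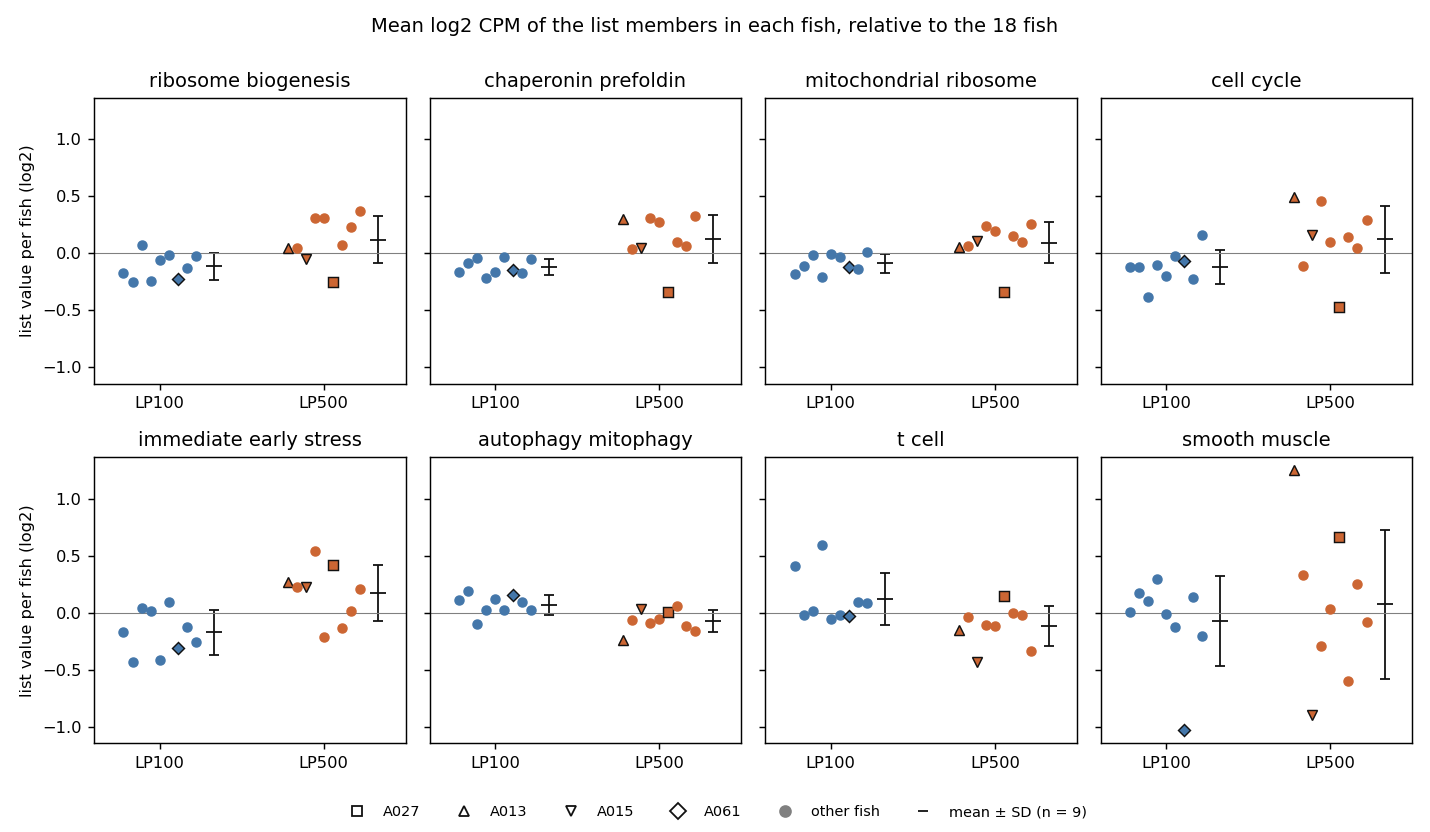
Value of 8 gene lists in each fish (vertical axis, mean over the members of log2 CPM relative to the 18 fish), for 9 LP100 (blue) and 9 LP500 (orange) fish with the mean and SD beside them. A027 (square) is the lowest LP500 fish for ribosome biogenesis, chaperonin and prefoldin, mitochondrial ribosome and cell cycle genes, while for smooth muscle genes A013 (1.250) and A061 (−1.033) are the extremes.

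Genes of autophagy and mitophagy were the group with the most low members. Of 28 tested, 11 were lower at an unadjusted p under 0.05 (5.03% of all tested genes were) and none higher, 5 had a positive log2 fold change, and the median was −0.132. Some of these genes had been listed because earlier results of these data named them, which are *bnip3l*, *wdfy1* and *usp8*. Of these, *bnip3l* and *wdfy1* are among the 11, so the count rests in part on genes picked from these data. Beside *epg5* and *atg2a*, the lower members were the conjugation enzymes *atg7* (−0.29 ± 0.09) and *atg5* (−0.18 ± 0.08), the protease *atg4c* (−0.24 ± 0.10), *rb1cc1* of the initiation complex (−0.24 ± 0.09), *becn1* of the lipid kinase complex (−0.20 ± 0.09), the cargo receptors *calcoco2* (−0.39 ± 0.12) and *bnip3l* (−0.28 ± 0.08), *calcoco1b* (−1.08 ± 0.44) and *wdfy1* (−0.20 ± 0.10). *bnip3l*, a receptor for mitochondria, was between 99.8 and 134 CPM in LP100 (median 112) and between 75.7 and 115 CPM in LP500 (median 91.9), with 6 LP500 fish below every LP100 fish. *calcoco2* was between 20.4 and 34.0 CPM in LP100 (median 27.9) and between 16.4 and 31.6 CPM in LP500 (median 18.6), and A027 was the highest LP500 fish for both. The summed level of the list was between 846 and 1030 CPM in LP100 (median 939) and between 666 and 935 CPM in LP500 (median 834). Without A027, 10 members were lower at an unadjusted p under 0.05 (6.97% of all tested genes) and 1 higher, and without A013, A015 and A061 it was 5 lower (4.0% of all tested genes) with a median of −0.130.

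Immune genes gave small numbers. Of 8 tested T cell markers, 3 were lower at an unadjusted p under 0.05 (5.03% of all tested genes were), 1 had a positive log2 fold change and the median was −0.234. *cd3e*, a chain of the T cell receptor complex, was between 23.1 and 38 CPM in LP100 (median 26.2), and its median was 22.9 CPM in LP500 (−0.25 ± 0.09, adjusted p of 0.345 in edgeR). The transcription factors *tbx21* and *rorca*, known from helper T cell subsets, had log2 fold changes of −0.47 ± 0.18 and −0.37 ± 0.15. The 2 LP100 fish A031 and A037 had the highest values of the T cell list (0.407 and 0.590), and the other 16 fish were between −0.430 and 0.148. Of 9 tested B cell genes, 1 was lower at an unadjusted p under 0.05, *cd79b* (median of the list −0.0105). Of 9 granulocyte and mast cell genes, 1 was lower, *kita* (median −0.0248). Each of these counts rests on a single gene. Of 8 macrophage and dendritic cell genes, none was at that limit (median −0.0977). Of 17 tested genes of pattern recognition and NF-κB signalling, 2 were lower at an unadjusted p under 0.05, *nlrc3* and the inhibitor *tnip1* (−0.17 ± 0.07), and 15 had a negative log2 fold change (median −0.169). The receptors *tlr1* (−0.44 ± 0.24), *tlr9* (−0.56 ± 0.30), *tlr2* (−0.47 ± 0.33) and *tlr3* (−0.23 ± 0.17) did not pass that limit, and exons on the opposite strand covered 94.8% of *tlr1*. Of 17 interferon response genes, 2 were lower, *irf1b* (−0.38 ± 0.16) and *cmpk2* (−0.54 ± 0.24), with a median of −0.0855. Over all tested genes 5.03% were lower, and each of these counts of 2 in 17 rests on only 2 genes. Of the 11 tested genes of cytokines and chemokines, 2 were higher at an unadjusted p under 0.05, *il34* and *anxa1*, and 1 was lower, the interferon gamma receptor chain *ifngr2b* (−0.13 ± 0.06). Over all tested genes, 5.75% were higher and 5.03% lower. *il34*, a ligand of the macrophage growth factor receptor, was between 4.32 and 6.91 CPM in LP100 (median 5.23) and had a median of 7.20 CPM in LP500, with 6 LP500 fish above every LP100 fish (0.40 ± 0.12). *anxa1*, the gene of the inflammation regulator annexin A1, was at 43.9 ± 5.67 CPM in LP100 and 55.6 ± 18.8 CPM in LP500 (SD, n = 9), with a log2 fold change of 0.34 ± 0.15 and adjusted p of 0.424 in edgeR, and A013 was the highest LP500 fish at 100 CPM. Without A013 the log2 fold change of *anxa1* was 0.19, with an unadjusted p of 0.0893 in edgeR. Without A013, A015 and A061 it was 0.22, with an unadjusted p of 0.0208. The adjusted p was between 0.288 and 0.758 over the alternatives. *tgfb1a* had a log2 fold change of 0.01 ± 0.16. The genes *il1b*, *cdh1* and *ighm* matched no symbol and were not analysed here.

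Few genes of the epithelium and of uptake had a small p. Of 6 tested distal intestine markers and 14 brush border genes, none was at an unadjusted p under 0.05, and *cubn* and *lrp2b*, the endocytic receptors cubilin and megalin, had log2 fold changes of −0.11 ± 0.11 and −0.09 ± 0.12. *lrp2b* changed sign without A013, A015 and A061 (0.02). Of 16 lysosomal genes of enterocytes, 1 was lower at an unadjusted p under 0.05, *cd68* (−0.24 ± 0.11), and the median was −0.142 (−0.0528 without A013, A015 and A061). Among 3 goblet cell genes, *agr2*, which folds mucins, was at 313 ± 76.0 CPM in LP100 and 453 ± 179 CPM in LP500 (SD, n = 9), and *muc13b* was at 909 ± 120 and 773 ± 121 CPM. Their log2 fold changes were 0.53 ± 0.21 and −0.23 ± 0.10. Both genes were at an unadjusted p under 0.05 (10.8% of all tested genes were, in either direction), and *creb3l1* was not. Exons on the opposite strand covered 54.4% of *muc13b*. Of 19 genes of cell junctions, 1 was lower at an unadjusted p under 0.05, the tight junction scaffold *tjp1a* (−0.23 ± 0.08). Counts of 1 in 16 and 1 in 19 are near the 5.03% of all tested genes that were lower. Genes of the unfolded protein response were mixed, with *sdf2l1* (0.37 ± 0.14), *manf* (0.60 ± 0.26) and *dnajc3a* (0.35 ± 0.16) higher and the sensor *ern1* (−0.22 ± 0.09) lower at an unadjusted p under 0.05 among 15 tested. Over all tested genes, 5.75% were higher and 5.03% lower. Of 23 lipid and sterol genes, 2 were higher, the sterol synthesis enzyme *lss* (0.61 ± 0.20) and the fatty acid carrier enzyme *cpt1b* (0.35 ± 0.16), which is near that share. Without A027 it was 7 (8.46% of all tested genes). A027 was the lowest LP500 fish for this list too (−0.816), so that count is no independent support. *pparg* had a log2 fold change of −0.09 ± 0.10.

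Markers of the gut wall varied widely between fish of the same diet. The 12 tested smooth muscle genes had a median log2 fold change of 0.307 and the 26 matrix and collagen genes of 0.152, and no member of either list was at an unadjusted p under 0.05. Without A013, A015 and A061 the medians were 0.0862 and 0.00454. The summed level of the smooth muscle list was between 869 and 2340 CPM in LP100 and between 986 and 5200 CPM in LP500. Of 10 endothelial genes, *vwf*, a clotting factor carrier made by vessel cells, was the only one at an unadjusted p under 0.05 (2.02 CPM in LP100 and 4.66 CPM in LP500, log2 fold change 1.21 ± 0.44). A count of 1 in 10 is near the 10.8% of all tested genes at that limit in either direction. Of 3 tested red blood cell genes, 1 was higher at an unadjusted p under 0.05 (5.75% of all tested genes were), namely *alas2*, while *tfr1a* had a log2 fold change of 0.30 ± 0.15 and *epb41a* of −0.30 ± 0.23. *alas2*, the first enzyme of heme synthesis in red blood cells, was between 2.26 and 3.95 CPM in LP100 (median 2.79) and between 3.08 and 25.8 CPM in LP500 (median 5.70). A total of 7 LP500 fish were above every LP100 fish, and the highest was A013. Its log2 fold change was 1.44 ± 0.34 (adjusted p of 0.224 in edgeR and 0.0154 in DESeq2, 0.0154 to 0.67 over the alternatives) and 0.99 at the lowest when single fish were left out. *ghra*, a growth hormone receptor gene, was between 2.06 and 3.39 CPM in LP100 (median 2.65) and between 3.08 and 6.67 CPM in LP500 (median 4.36), but exons on the opposite strand covered 51.9% of its exon length (0.73 ± 0.15).

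**Figure D4:**
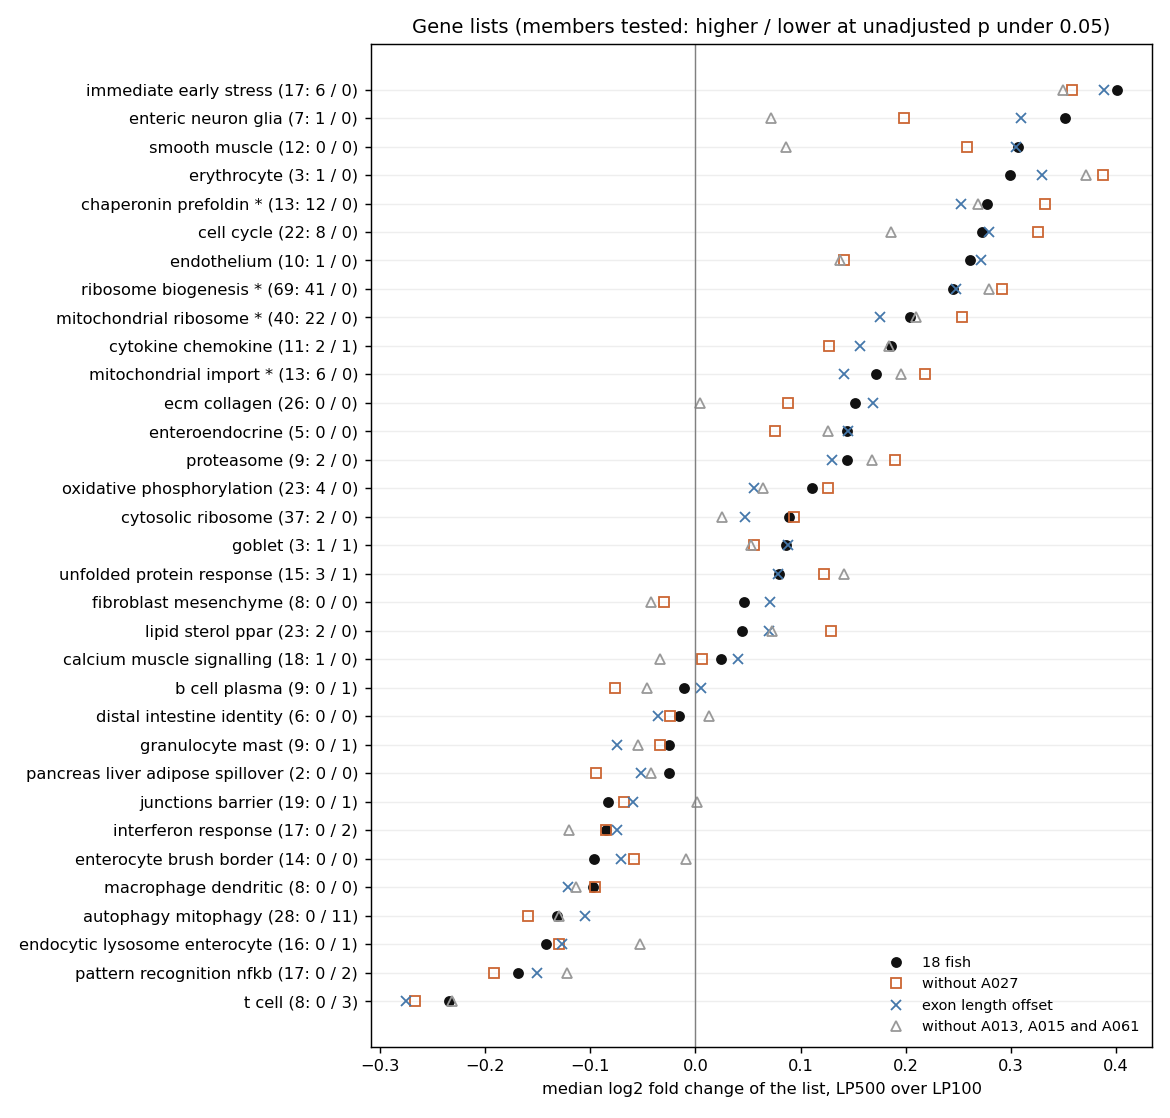
Median log2 fold change of each of 33 gene lists (horizontal axis) with all 18 fish and in 3 alternative fits, with the number of members tested and the numbers higher and lower at an unadjusted p under 0.05 in brackets; lists with an asterisk were added after the leading genes had been seen. Immediate early genes (0.401) are at the top, T cell markers (−0.234) at the bottom, and the medians of smooth muscle and of matrix and collagen genes move toward 0 without A013, A015 and A061.

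The length of a gene moved with its fold change. Among the genes in the class of shortest exon length (58 to 2157 bases), the median log2 fold change was 0.0424, and 9.28% were higher and 3.72% lower at an unadjusted p under 0.05. In the longest class (6591 to 40850 bases) it was −0.0249, with 3.43% higher and 6.30% lower. The genes of the mitochondrial ribosome are short (median exon length 1513 bases, in the shortest class). The median of the ribosome biogenesis genes (3233 bases) falls in the class of 2158 to 3242 bases, where 7.39% were higher and 4.74% lower. That of the autophagy genes (4089 bases) falls in the middle class (3243 to 4531 bases). In the middle class the median log2 fold change was −0.0104, with 5.48% higher and 5.24% lower. The value of short minus long genes in a fish was between −0.111 and 0.028 on the log2 scale in LP100 and between −0.129 and 0.160 in LP500, lowest in A027 and highest in A013. The means of the diets differed by 0.0705 (exact permutation test, two-sided, n = 9 against 9, p = 0.0389, adjusted over 6 library measures p = 0.117). With the trend over exon length taken out in each fish, 5.92% of all tested genes were higher and 4.46% lower at an unadjusted p under 0.05 (10.4% together). In that fit 42 of 69 ribosome biogenesis genes, 11 of 13 chaperonin and prefoldin genes and 8 of 22 cell cycle genes were higher. Without the offset it was 41, 12 and 8. Of the 40 genes of the mitochondrial ribosome 15 were higher, against 22 without the offset. Of the mitochondrial import genes (median exon length 1367 bases) 3 of 13 were higher, against 6 without the offset. The median of the oxidative phosphorylation genes (1223 bases) was 0.0555, against 0.111 without the offset. Lower autophagy genes came to 8 of 28, with a median of −0.105, against 11 and −0.132 without the offset. No gene passed the adjusted p in that fit either (3099 at an unadjusted p under 0.05).

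**Figure D5:**
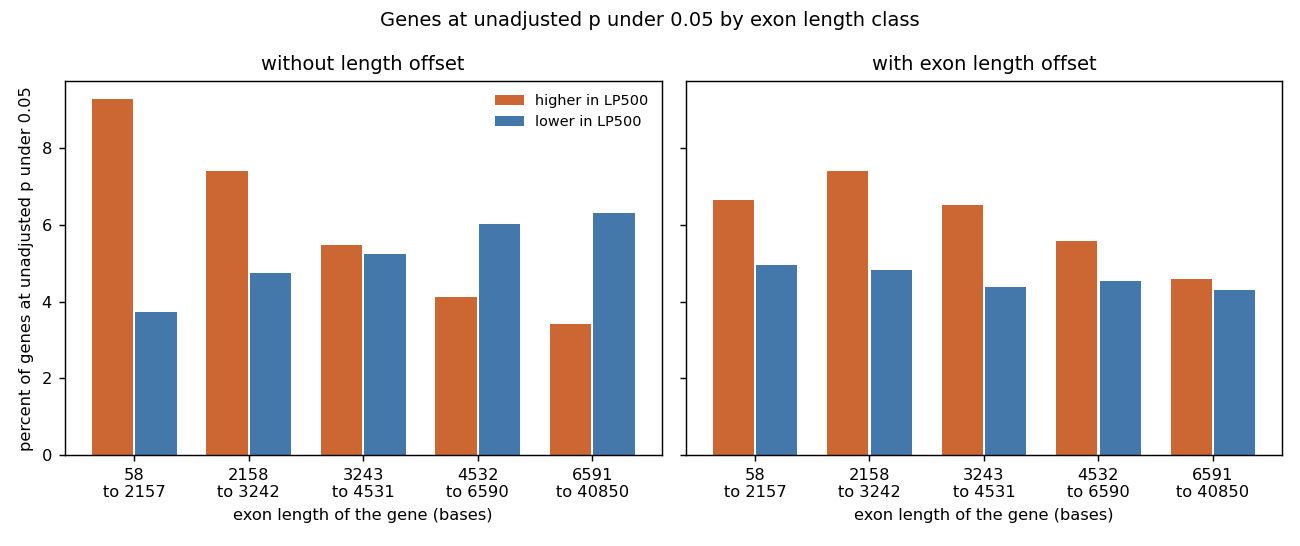
Percent of genes (vertical axis) higher (orange) and lower (blue) in LP500 at an unadjusted p under 0.05, in 5 classes of exon length in bases (horizontal axis), without and with an offset for exon length in each fish. Without the offset the share of higher genes goes from 9.28% in the shortest class to 3.43% in the longest, and with it from 6.64% to 4.60%.

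The records number the fish in 3 runs of 3 consecutive labels per diet, and the trial kept 3 tanks per diet, but no source states that a run is a tank. The tank of each fish is not given in the sources used here, and its part in the results was not tested. Diets were given to tanks, so the 9 fish of a diet are not 9 independent replicates of it. The p and SE of edgeR and DESeq2 on single fish, and the permutation p, take the fish as independent. With counts added up within the runs (3 sums for each diet), 2 genes passed edgeR as higher (ENSSSAG00000089431 and ENSSSAG00000057640) and none lower, with 2120 higher at an unadjusted p under 0.05. ENSSSAG00000057640 did not pass the filter on low counts in the fit of single fish, since it had counts in 4 of 9 LP500 fish (up to 10.3 CPM) and in none of the LP100 fish. The correlation of fish in a run, estimated across all genes, was −0.0923.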

How the data were processed

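The authors sequenced RNA of each fish as read pairs, processed the reads with nf-core rnaseq and the assembly Ssal_v3.1, and deposited raw count values per Ensembl gene, made with featureCounts v1.5.1 (strand setting 2). The deposited counts were whole numbers for 69389 genes, without normalization. Near-identical copies from the salmonid genome duplication can share or lose reads. Fish were grouped by the diet in the records. Nothing marks 2 libraries as one fish, and the smallest chi-square per gene over 153 pairs was 7.463, where sampling noise gives about 1.

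Genes took the symbol of the RefSeq gene of the same assembly with which they shared at least 0.5 of their joint span (30322 matched, 8775 of them under a symbol that is not a LOC number; 4728 matched after a shift of 100000 bp). Sequences and promoters were not used here.

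The 18 fish were fitted with edgeR (v4.0.16, run in R v4.3.3) after its low count filter, TMM, the robust quasi-likelihood test and Benjamini-Hochberg adjustment at 0.05. The fit was also run on simulated data, and the outcome of that run is not given here. CPM are TMM-scaled counts per 1000000, and a list value is the mean of log2 CPM (prior count 2) relative to the mean of the 18 fish. A gene at 10 CPM has over 100 counts in every fish. DESeq2 v1.42.0 and limma v3.58.1 gave alternatives. Named genes were those with the 10 smallest p per direction (with a symbol, at least 1 CPM and at most 50% of exon length opposite other exons), up to 5 DESeq2 calls per direction, 2 per list, and genes of the study's measured proteins. Others were named after their values were seen. The comparison and the 29 lists were chosen with earlier results of these data known, and 4 lists were added after the leading genes were seen. Lists got no test. RNA extraction is described differently in the records and the study's methods.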

Additional observations from a re-analysis of the deposited data

Results flagged for a closer look

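In each group of 9 fish, the highest and the lowest value were checked for a gap to the next fish above the critical value of Dixon's test, as a share of the range of the group. Of 238 groups (genes in CPM, list values and library measures), 32 had such a fish. Chance gives about 1 in 20 for independent groups. These groups share fish, and lists share genes with the single genes, so the 32 cannot be set against that rate. Fish A013 of LP500 had 10 of them and A061 of LP100 had 9. Their part in the differences between the diets was measured by leaving these fish out, as given above.

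A013 was far above the other LP500 fish in *alas2* (25.8 CPM, others 3.08 to 10.2), *scg2b* (4.62 CPM), *ognb* (4.30 CPM), *ndufb3* (52.5 CPM), *rpl36a* (40.0 CPM), *anxa1* (100 CPM) and the cytosolic ribosome list (0.537), and far below them in *cd68* (102 CPM, others 176 to 222), the distal intestine list (−0.598) and the list of enterocyte lysosomes (−0.609). A061 was far below the other LP100 fish in *nos1* (0.161 CPM), *tpm1* (93.8 CPM, others 182 to 250) and the lists of enteric nerves and glia (−0.832), smooth muscle (−1.03), matrix and collagen (−1.60), fibroblasts (−1.69), endothelium (−2.03) and granulocytes and mast cells (−0.697), and in the value of smooth muscle minus enterocyte genes (−3.24). A015 of LP500 was far below in the lists of matrix and collagen (−1.79), fibroblasts (−1.87) and endothelium (−1.56).

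A027 of LP500 was far below the other LP500 fish in the chaperonin and prefoldin list (−0.343, others 0.0392 to 0.327) and the mitochondrial ribosome list (−0.343, others 0.0521 to 0.258), and above them in *ern1* (22.0 CPM, others 13.2 to 16.0). A025 of LP500 was above in *atf3* (63.5 CPM) and *cmpk2* (6.23 CPM). In LP100, A033 was above in *znf593* (19.7 CPM), A037 in *cd3e* (38 CPM), A038 in *lss* (77.0 CPM) and A039 in *atf3* (22.9 CPM), and A039 was below in the distal intestine list (−0.218).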

How the results depend on the processing

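With edgeR on the 18 fish no gene was called in either direction, and the same held with DESeq2's size factors, without the filter on low counts, on all 45 fish, with the smooth muscle minus enterocyte value as a covariate, and without any single run of labels. Among the alternatives chosen after seeing the data, it also held with the exon length offset and without A013, A015 and A061. DESeq2 called 48 genes higher and 25 lower on 18 fish and 47 and 15 on 45 fish. Counts summed per label run gave 2 higher (ENSSSAG00000089431 and ENSSSAG00000057640, with *znf593* at an adjusted p of 0.142 and LOC106613630 at 0.122), and limma voom with the run as a random block 2 higher (*znf593* and LOC106613630). Leaving out single fish gave between 0 and 217 higher and between 0 and 43 lower. The cause of these differences was not tested. Of 2822 alternative values for 83 named genes, 2754 had the same direction and side of the threshold, 66 (29 genes) passed the threshold, and 2 changed sign, both of *lrp2b* (0.02 without A013, A015 and A061 and 0.02 without the first label run of LP500). The list medians had no test. Without A013, A015 and A061 the medians of 4 lists changed sign, which were distal intestine markers (−0.0156 to 0.013), fibroblasts (0.0465 to −0.0427), junctions (−0.0831 to 0.00145) and calcium and muscle signalling (0.0239 to −0.0337), and that of enteric neurons and glia went from 0.352 to 0.0717. Without A027 fibroblasts were at −0.0299, and with the length offset B cells went from −0.0105 to 0.00545. No paired analysis was possible because the fish of the diets share no numbers in the records. With 9 fish per diet and many differences under 1.5-fold, genes that do not pass the test cannot be taken as equal.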
